A study of Homo sapiens with 12 samples.

Results

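GPC5 and GPC6 are neighbouring genes on the long arm of human chromosome 13, and their peaks of H3K9me3, trimethylation of lysine 9 on histone H3, were compared between SMARCA3 knockout (KO) and wild-type (WT) 293T cells. A peak was taken as a member where the authors' gene column names GPC5 or GPC6, which gave 166 of the 65170 peaks listed for KO and 160 of the 46898 listed for WT, 326 of 112068 in all. The genes themselves were chosen from these same peak counts, both being among the genes with most peaks, so every value from the lists is a description and carries no test. 293T is a human embryonic kidney line that expresses the large T antigen of SV40. The knocked-out gene, SMARCA3, is now named HLTF and encodes a DNA translocase of the SWI/SNF-related group with a ubiquitin ligase domain. Each genotype had 3 libraries precipitated with an anti-H3K9me3 antibody and 3 of input chromatin, and the deposited data used here were 1 peak list for KO and 1 for WT. The labels do not say how the knockout was made or whether the KO cells were 1 clone. No list has a column for a single library, so depth per library is unknown here, replicate spread could not be measured, and intervals are Wilson 95% intervals that cover the counting of peaks only.

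Glypicans are proteoglycans held to the outer cell surface by a lipid anchor. Their heparan sulfate chains bind growth factors and morphogens such as Wnt, Hedgehog, FGF and BMP proteins, and so shape how far and how strongly these signals act. GPC5 and GPC6 are among the longest genes of the family, and each lies in a region with few other coding genes. H3K9me3 is a mark of heterochromatin and of silenced repeats.

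These promoter windows are shown first because neither held a peak in either genotype, while the gene bodies held many. Peaks covered only 4.86 to 5.95% of those bodies, so a short window without a peak is not unusual there. No share over all promoter windows stands beside this. The sequences are from RefSeq (GRCh38.p14), 5' to 3' on the plus strand, from 250 bases before to 50 bases after the transcript start, with each CG dinucleotide in capitals. They lie at chr13:91398371-91398670 for GPC5 and chr13:93226557-93226856 for GPC6, whose gene body in RefSeq begins further upstream, at 93216529.
GPC5 promoter: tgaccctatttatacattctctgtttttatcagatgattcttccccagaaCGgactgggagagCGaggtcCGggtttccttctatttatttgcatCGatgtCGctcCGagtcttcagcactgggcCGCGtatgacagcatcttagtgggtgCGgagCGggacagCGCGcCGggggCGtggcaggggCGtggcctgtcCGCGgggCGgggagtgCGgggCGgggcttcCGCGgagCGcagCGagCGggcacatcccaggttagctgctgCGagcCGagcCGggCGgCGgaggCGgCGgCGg
GPC6 promoter: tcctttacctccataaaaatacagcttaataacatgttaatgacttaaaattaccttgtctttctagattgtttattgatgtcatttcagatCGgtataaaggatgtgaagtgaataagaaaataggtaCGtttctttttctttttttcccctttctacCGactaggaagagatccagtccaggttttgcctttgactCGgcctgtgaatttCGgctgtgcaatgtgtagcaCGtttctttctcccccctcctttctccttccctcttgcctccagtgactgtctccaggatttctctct

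The GPC5 promoter window held 33 CG dinucleotides and was 65% G or C, whereas the GPC6 window held 6 and was 40% G or C. The dinucleotide reads the same on both strands, and the median over 35116 promoter windows of the same length was 14. Of those windows, 17.2% held at least as many as GPC5 and 66.3% at least as many as GPC6. The start of GPC5 was flanked by long peak-free stretches. In KO the nearest peaks ended 18500 bp before and began 18075 bp after the RefSeq start, and in WT they lay 18110 bp before and 24831 bp after it. At GPC6 the nearest peak upstream of the transcript start of the promoter window was 15288 bp away in KO and 14310 bp away in WT. The RefSeq gene body of GPC6 begins further upstream, nearer to these peaks. Downstream of the same transcript start the first peak began after 6477 bp in KO, with a fold of 3.52, and after 6279 bp in WT, with a fold of 4.28. Fold here is the authors' fold enrichment of a peak, read as ChIP signal over the background of the peak caller.

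GPC5 (ENSG00000179399) is 1.47 Mb long in RefSeq, on chromosome 13 from 91398621 to 92867237 (hg38), and had 90 peaks in KO and 103 in WT. GPC6 (ENSG00000183098) is 1.19 Mb long, from 93216529 to 94408020, and had 76 peaks in KO and 57 in WT. GPC5 thus had 13 fewer KO than WT peaks and GPC6 had 19 more. As a ratio of KO to WT this was 0.874 (0.659 to 1.16) for GPC5 and 1.33 (0.947 to 1.88) for GPC6. The intervals of the genes overlap, and both include 1, an equal number of peaks. Of all 9261 gene names with a peak in either list, 20.2% had fewer KO than WT peaks and 54.7% had more. Among the 285 protein-coding genes of at least 500 kb with a peak, 17.2% had fewer KO peaks. At the common median q-value the GPC5 ratio was 1.11, and in lists of equal length the GPC6 ratio was 0.877, so neither direction held under every setting.

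**Figure D1:**
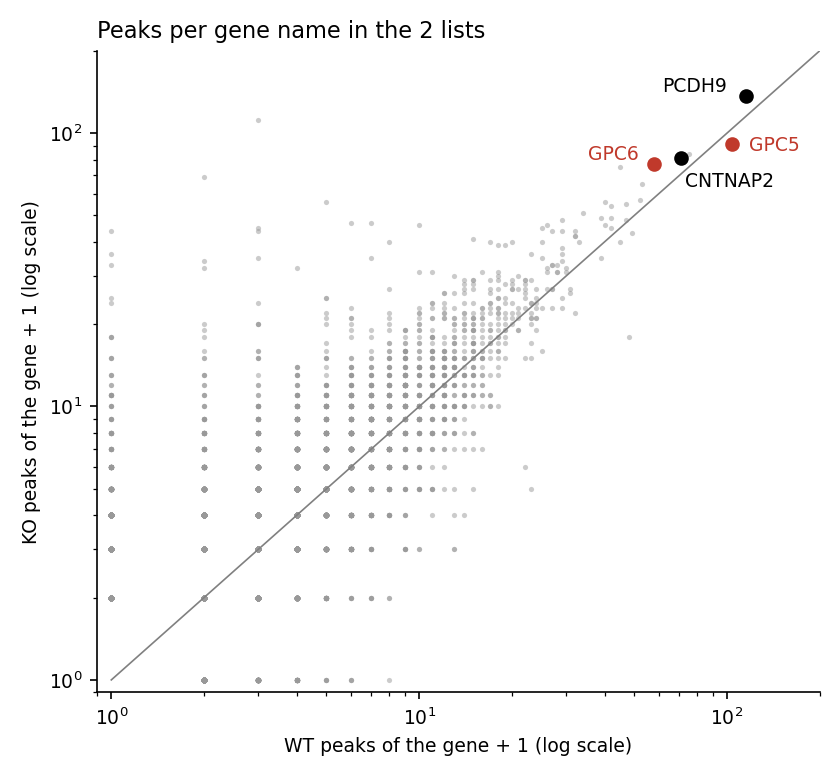
Peaks per gene name in KO (vertical axis, log scale, 1 added) against WT (horizontal axis, log scale, 1 added), each grey point being 1 of 9261 names and the line marking equal numbers. GPC5, with 90 KO and 103 WT peaks, lies below the line, while GPC6, with 76 and 57, lies above it, as do the long genes PCDH9 and CNTNAP2.

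Bases in peaks followed the same order. GPC5 had 77677 bases in KO and 87396 in WT, and GPC6 had 70925 and 57957. KO over WT was thus 0.889 for GPC5 and 1.22 for GPC6. Fewer KO than WT bases were found for 21.0% of all names. Peaks of GPC5 averaged 863 bp in KO and 849 bp in WT. Its peaks that met the other list, 68 in KO and 71 in WT, held 67860 bases in KO and 73622 in WT, and its peaks of 1 genotype alone held 9817 and 13774. Those of GPC6 averaged 933 bp in KO and 1017 bp in WT. Over the autosomes, X and Y the ratio was 1.39 for peaks and 1.59 for bases, and the average peak had 810 bp in KO, against 709 bp in WT. On chromosome 13 outside both genes the ratio of peaks was 1.17 (1.12 to 1.22). The KO share of a gene's peaks was 46.6% (39.7 to 53.7) for GPC5 and 57.1% (48.6 to 65.2) for GPC6, against 58.2% for the lists as wholes.

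Per length, the genes were alike in KO and apart in WT. GPC5 had 61.3 peaks per Mb of gene body in KO and 70.1 in WT. GPC6 had 63.8 in KO and 47.8 in WT. The density of GPC5 over that of GPC6 was therefore 0.961 (0.709 to 1.30) in KO and 1.47 (1.06 to 2.02) in WT. By bases, 5.29% of GPC5 lay in peaks in KO and 5.95% in WT, while for GPC6 the shares were 5.95% in KO and 4.86% in WT. For scale, the median over 315 protein-coding genes of at least 500 kb was 10.3 peaks per Mb in KO and 7.99 in WT. PCDH9, a protocadherin gene elsewhere on chromosome 13, had 147 peaks per Mb in KO and 123 in WT, and CNTNAP2, a neurexin family gene on another chromosome, had 34.7 and 30.4.

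Likeness to other genes of at least 500 kb was measured as the Euclidean distance of log2(peaks per Mb + 1) over the 2 lists. GPC5 was closest to DOCK3, which had 77.5 peaks per Mb in KO and 55.0 in WT, at a distance of 0.48. GPC6 came next at 0.55, followed by CCDC178 at 0.55, SLC44A5 at 0.57 and NKAIN2 at 0.66. All of these except CCDC178 had a lower density than GPC5 in WT. GPC6 was closest to NKAIN2, which had 52.8 peaks per Mb in KO and 45.0 in WT, at a distance of 0.28. DOCK3, SLC44A5 and CHRM3 were among the next, at 0.34 to 0.41. DOCK3 encodes a guanine nucleotide exchange factor and CHRM3 a muscarinic acetylcholine receptor.

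Most of the peaks at both genes touched a peak of the other genotype. A peak was counted as meeting the other list where at least 1 bp overlapped. With 50% of both peaks required, the shares were 43.3% of KO and 37.9% of WT peaks at GPC5, and 42.1% of KO and 56.1% of WT peaks at GPC6. At GPC5, 68 of 90 KO peaks met a WT peak, or 75.6% (65.8 to 83.3), beside 50.6% of all KO peaks on the chromosomes. Of its 103 WT peaks 71 met a KO peak, or 68.9% (59.5 to 77.1), beside 79.9% of all WT peaks. At GPC6, 46 of 76 KO peaks met a WT peak, or 60.5% (49.3 to 70.8). Of the 57 WT peaks 49 met a KO peak, or 86.0% (74.7 to 92.7). The share was thus higher among KO than WT peaks at GPC5 and lower among KO than WT peaks at GPC6, and over all peaks it was lower among KO peaks too. Both orders turned under a setting: at the common median q-value the GPC5 shares were 59.3% in KO and 67.9% in WT, and in lists of equal length the GPC6 shares were 76.0% in KO and 75.4% in WT. Merged across the lists, the peaks formed 115 regions at GPC5, of which 61 held peaks of both genotypes, 22 a KO peak alone and 32 a WT peak alone. GPC6 had 80 such regions, with 42 of both, 30 of KO alone and 8 of WT alone. In bases, 71.7% of the KO and 63.7% of the WT coverage of GPC5 was common to the lists, and 66.8% of the KO and 81.8% of the WT coverage of GPC6. Merged regions and common bases were computed for GPC5 and GPC6 only, so no share over all chromosomes stands beside them. Counted as peaks, 31934 KO and 9319 WT peaks over all chromosomes met no peak of the other list. On chromosome 13 outside both genes the numbers were 1761 of 4272 in KO and 1125 of 3658 in WT. There 58.8% of KO and 69.2% of WT peaks met the other list, near the 60.5% of KO peaks at GPC6 and the 68.9% of WT peaks at GPC5.

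Peaks found in 1 genotype only were narrower in the median than the others, at both genes as over all chromosomes. Their median fold was 3.62 (KO) and 3.70 (WT) at GPC5 and 3.36 (KO) and 3.89 (WT) at GPC6. Peaks that met the other list had higher median folds, 3.78 (KO) and 4.31 (WT) at GPC5 and 4.05 (KO) and 4.28 (WT) at GPC6. Over all chromosomes peaks of 1 genotype had medians of 3.43 (KO) and 3.61 (WT), and those that met the other list 3.90 (KO) and 3.85 (WT). The whole lists had 3.59 (KO) and 3.77 (WT). Fold 4 was reached by 2 of 22 KO-only and 10 of 32 WT-only peaks at GPC5, and by 3 of 30 and 4 of 8 at GPC6. Of peaks with fold 4 and above, 92.6% in KO and 81.5% in WT thus met the other list at GPC5, and 88.9% and 88.2% at GPC6. Over all chromosomes 77.7% of such KO and 90.2% of such WT peaks did. At GPC5 the median width of peaks of 1 genotype was 357 bp (KO) and 367 bp (WT), while that of peaks meeting the other list was 774 bp and 699 bp. At GPC6 peaks of 1 genotype had medians of 364 bp (KO) and 322 bp (WT), and the others 936 bp (KO) and 773 bp (WT). Over all chromosomes the medians were 401 bp (KO) and 349 bp (WT) for peaks of 1 genotype, and 809 bp and 551 bp for the others. Peaks of 1 genotype held 12.6% of the KO and 15.8% of the WT bases of GPC5, and 19.3% of the KO and 5.47% of the WT bases of GPC6. Some lay close to a peak of the other list. At GPC5, 6 of 22 KO peaks and 5 of 32 WT peaks had one within 1 kb, while 6 and 10 had none within 10 kb. At GPC6, 9 of 30 KO peaks and 5 of 8 WT peaks had one within 1 kb, while 8 and 0 had none within 10 kb. The widest WT-only peak of GPC5 spanned 1521 bp (chr13:92542200-92543720) with a fold of 5.03, and the nearest KO peak was 19559 bp away. The widest KO-only peak of GPC6 spanned 1078 bp (chr13:93710231-93711308) with a fold of 3.24. It was 1311 bp from a WT peak. The highest KO-only peak of GPC6 had a fold of 5.67 over 704 bp (chr13:93711547-93712250), 369 bp from a WT peak. The next highest had a fold of 4.67 over 747 bp, 7275 bp from a WT peak.

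**Figure D2:**
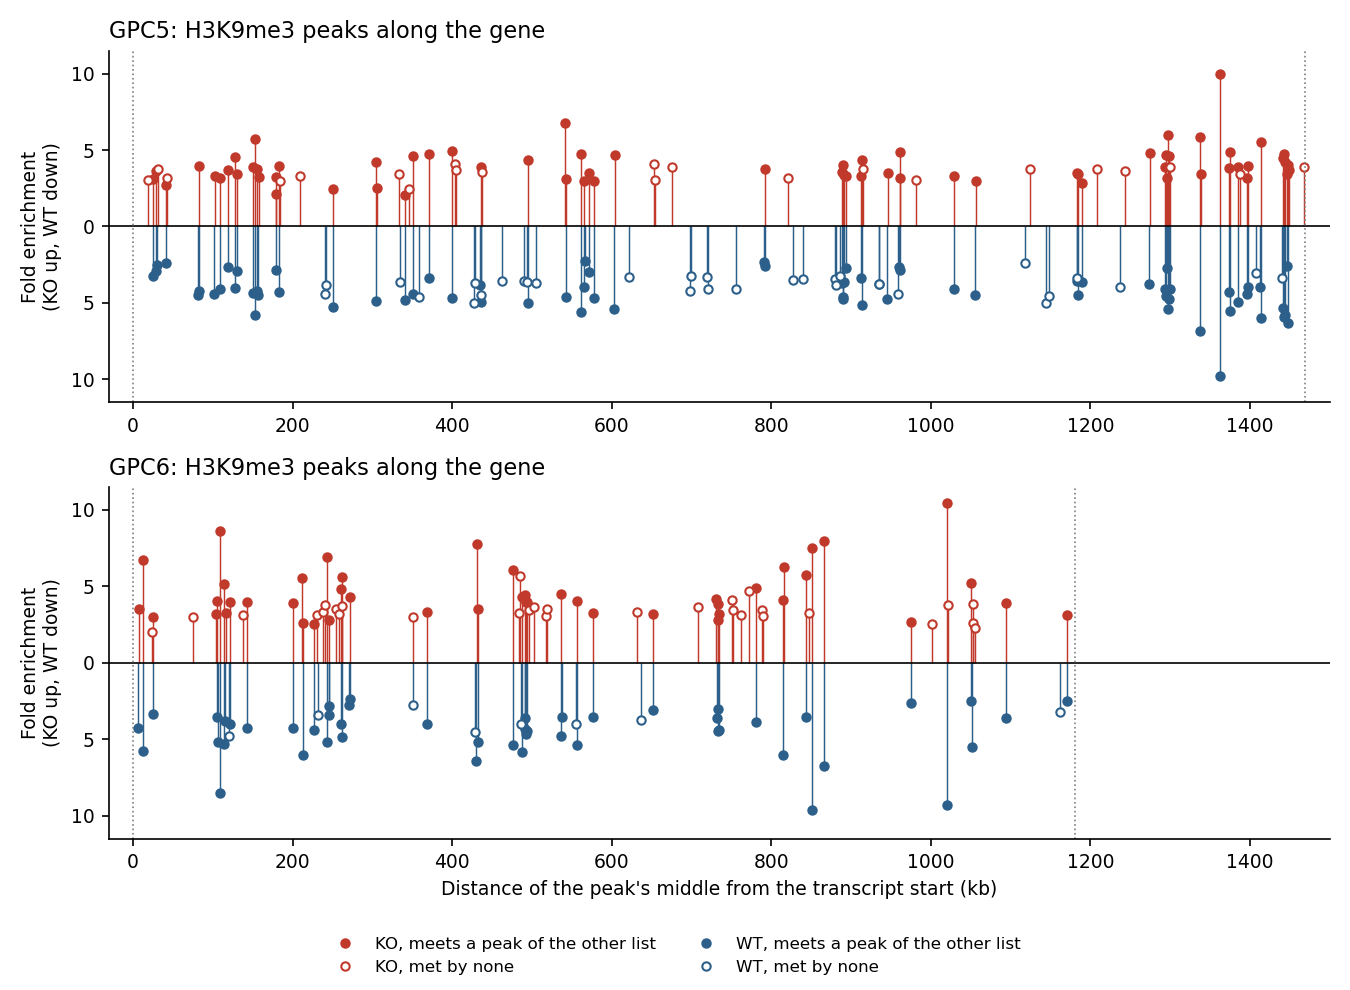
Each H3K9me3 peak of GPC5 (upper panel) and GPC6 (lower panel) at the distance of its middle from the transcript start (kb), with its fold enrichment drawn upward for KO and downward for WT, and dotted lines at the ends of the transcript. Filled points meet a peak of the other list and open points do not, and 30 of the 32 open WT points of GPC5 lie between 200 and 1300 kb.

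Along GPC5 most windows had fewer bases in KO. In windows of 100 kb from the start of the authors' main transcript (ENST00000377067), 11 of 15 held fewer KO than WT bases, or 73.3% (48.0 to 89.1). Of all 100 kb windows with a peak on the autosomes, X and Y, 22.0% did. Those windows were counted from the chromosome start and took peaks of any gene name or none. The first 200 kb of GPC5 had 20 peaks and 20644 bases in KO and 17 peaks and 18108 bases in WT. From 200 to 1300 kb, bounds set after the values were seen, there were 52 peaks and 38028 bases in KO and 70 peaks and 49186 bases in WT, KO having 0.773 times as many bases as WT, and 10 of the 11 windows had fewer KO bases. That span held 15 of the 22 KO-only and 30 of the 32 WT-only peaks of the gene. The remaining part, from 1300 to 1469 kb, had 19005 bases in KO and 20102 in WT. The windows of largest deficit in KO were those from 1100 to 1200 kb, with 1880 bases in KO and 5042 in WT, from 900 to 1000 kb, with 3194 and 5250, and from 1400 to 1469 kb, with 6042 and 7691. The windows of largest excess were the first 100 kb, with 9184 bases in KO and 7129 in WT, that from 500 to 600 kb, with 8551 and 7414, and that from 1300 to 1400 kb, with 12963 and 12411. Among peaks at or below the common median q-value, 8 of 15 windows had fewer KO bases.

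At GPC6 the excess of KO bases came from a few windows. Along its main transcript (ENST00000377047), 3 of 12 windows held fewer KO than WT bases, or 25.0% (8.89 to 53.2), near the 22.0% of all windows, and the largest of these 3 deficits, KO minus WT, was -482 bases. The window from 200 to 300 kb had 15 peaks and 14846 bases in KO and 11 peaks and 9664 bases in WT. The window from 700 to 800 kb had 12 peaks and 6616 bases in KO and 5 peaks and 3214 bases in WT, and 7 of the KO peaks there had no WT partner. From 1000 to 1100 kb the bases were 7524 in KO and 4754 in WT. In the other 9 windows the difference stayed below 1000 bases. When only peaks that reached the pooled median fold were kept, 6 of 10 windows had fewer KO bases. Within each gene the windows ranked alike in the genotypes, with a Spearman rho between KO and WT bases of 0.91 over 15 windows at GPC5 and 0.94 over 12 at GPC6. These are descriptions over adjoining windows that share the same lists.

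**Figure D3:**
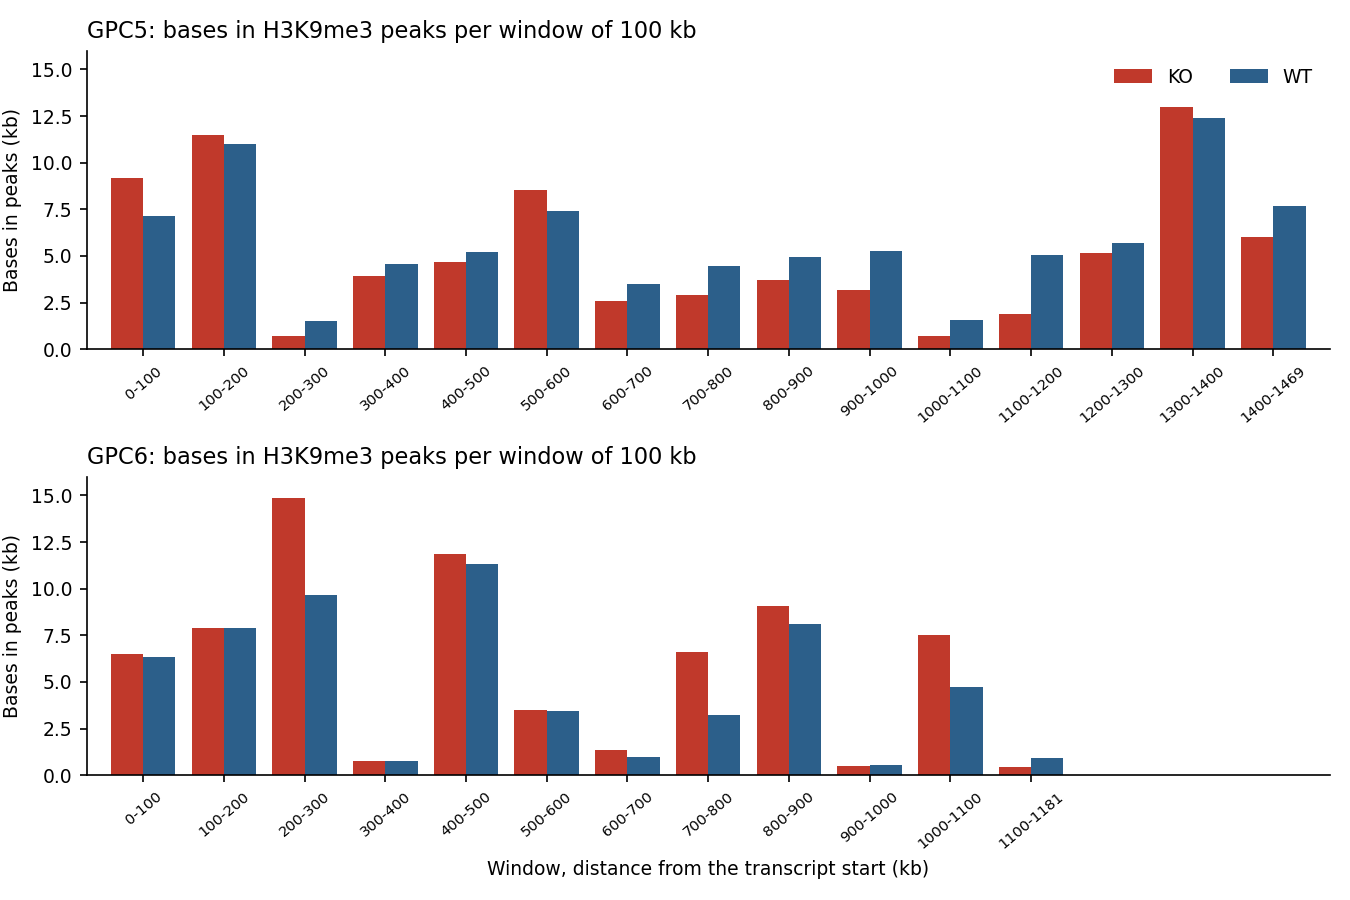
Bases in H3K9me3 peaks (kb) per window of 100 kb along GPC5 and GPC6, by distance from the transcript start, in KO (red, left bar) and WT (blue, right bar), with the last window of each gene shorter. KO bars are lower in 11 of 15 windows of GPC5 and in 3 of 12 windows of GPC6, and the tallest KO bar of GPC6 is that from 200 to 300 kb with 14846 bases.

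Each gene had long stretches without peaks assigned to it. Peaks inside the gene that were assigned to noncoding genes were not counted, so a stretch may hold such a peak. In GPC6 the longest was nearly identical in the genotypes, 107710 bp in KO (chr13:94094450-94202159) and 107879 bp in WT. In GPC5 the longest spanned 115230 bp in KO (chr13:92073990-92189219) and 75474 bp in WT (chr13:92020589-92096062). WT peaks of GPC5 lay within the longest stretch free of its KO peaks, and KO peaks lay within the longest stretch free of its WT peaks. The median gap between neighbouring peaks of GPC5 was 6512 bp (KO) and 6316 bp (WT), and that of GPC6 was 6136 bp (KO) and 9336 bp (WT). Gaps under 1 kb made up 32.6% of the gaps in KO and 34.3% in WT at GPC5, and 29.3% in KO and 35.7% in WT at GPC6.

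The strongest peaks were shared. The widest peak of GPC5 in both genotypes was also its highest, 4912 bp with a fold of 10.00 in KO (chr13:92758543-92763454) and 4938 bp with a fold of 9.76 in WT, about 1360 kb inside the gene. The highest of GPC6 in KO had a fold of 10.5 over 2479 bp (chr13:94245295-94247773), where WT had 9.29 over 2586 bp. The highest of GPC6 in WT had a fold of 9.60 over 3278 bp (chr13:94075723-94079000), where KO had 7.53. The widest of GPC6 lay close to its start, 9.80 kb inside, with 4664 bp and a fold of 6.75 in KO and 5051 bp and a fold of 5.78 in WT. A GPC5 peak 541 kb inside the gene (chr13:91939652-91940888) had a fold of 6.75 in KO and met a WT peak of fold 4.61. In the other direction, a WT peak near the end of GPC5 (chr13:92845914-92847529) met 2 KO peaks of fold 4.05 at most, its own fold being 6.29.

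Below these, GPC5 had fewer peaks of middle fold in KO. By q-value the order was the other way, with 59 KO and 53 WT peaks of GPC5 at or below the common median q-value. Peaks of fold 4 and above, a threshold set after the values were seen, numbered 27 in KO and 54 in WT at GPC5 and 27 in KO and 34 in WT at GPC6. KO over WT was 0.500 at GPC5 and 0.794 at GPC6. Over all chromosomes that ratio was 1.097, and on chromosome 13 outside both genes it was 0.867. From fold 5 GPC5 had 6 peaks in KO and 17 in WT, and GPC6 had 15 and 16. From fold 6 the numbers were 2 and 3 at GPC5 and 9 and 7 at GPC6. Of the 54 WT peaks of GPC5 with fold 4 and above, 44 met a KO peak and 24, or 44.4% (32.0 to 57.6), met one that also reached fold 4, beside 62.2% of such WT peaks over all chromosomes. At GPC6 it was 20 of 34, or 58.8% (42.2 to 73.6). In the other direction, 22 of the 27 KO peaks of GPC5 that reached fold 4 met a WT peak that did so too, or 81.5% (63.3 to 91.8), beside 51.0% of such KO peaks over all chromosomes. With 24 WT and 22 KO peaks meeting in this way, the shares at GPC5 differ mainly through the 54 and 27 peaks counted above. The folds were set separately in each list, so a fixed fold need not be the same signal in KO and WT.

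**Figure D4:**
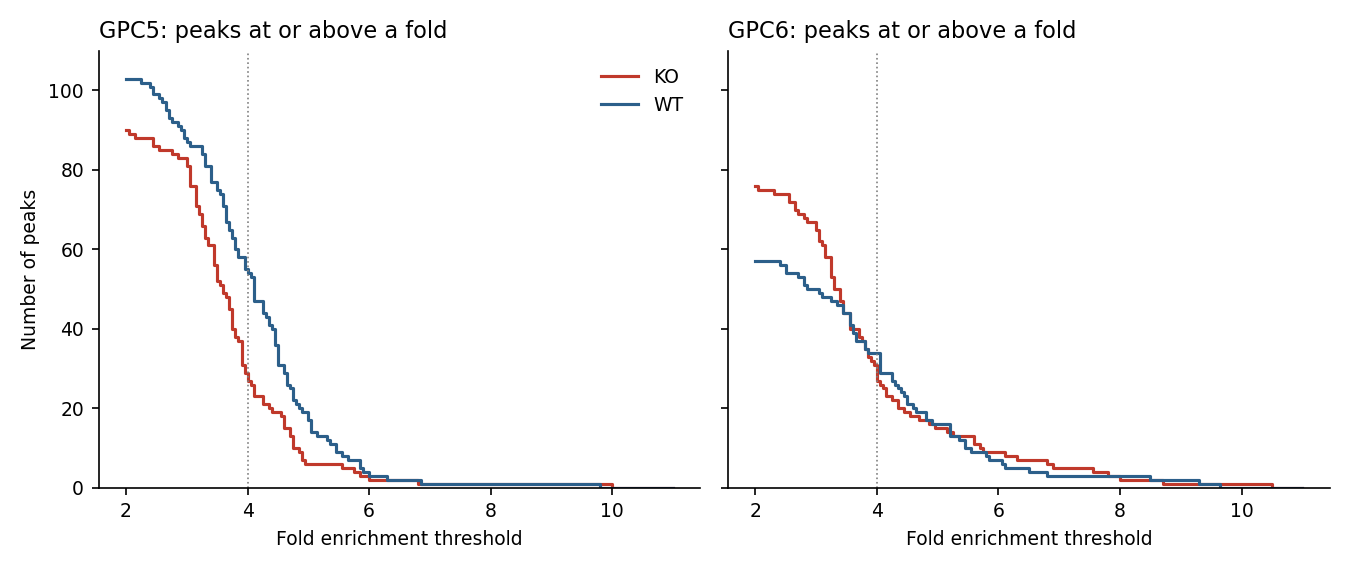
Number of peaks of GPC5 (left) and GPC6 (right) at or above each fold enrichment, in KO (red) and WT (blue), with a dotted line at fold 4. At GPC5 the KO line lies below the WT line up to about fold 6, with 27 and 54 peaks at fold 4, while at GPC6 it starts above, with 76 and 57 peaks, and meets the WT line before fold 4.

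Folds could also be set side by side where exactly 1 KO peak and 1 WT peak overlapped. GPC5 had 46 such pairs, with a median fold of 3.87 in KO and 4.32 in WT and a median ratio within pairs of 0.945, and 29 of them, or 63.0% (48.6 to 75.5), had the lower fold in KO. GPC6 had 33, with medians of 3.97 in KO and 4.28 in WT and a median ratio of 0.960, and 19, or 57.6% (40.8 to 72.8), had the lower fold in KO. Over all 21839 pairs the share was 48.5%, and it was 61.1% of 54 pairs at PCDH9 and 63.9% of 36 at CNTNAP2, close to that of GPC5. The KO peak was the wider one in 17 of 46 pairs at GPC5, or 37.0% (24.5 to 51.4), and in 17 of 33 at GPC6, or 51.5% (35.2 to 67.5), beside 69.6% of all pairs. At PCDH9 the share was 48.1% (35.4 to 61.1) and at CNTNAP2 63.9% (47.6 to 77.5). On chromosome 13 outside both genes 57.4% of 1639 pairs had the lower fold in KO and 55.0% the wider peak. The pair with the largest excess at GPC5 differed by 0.88 on the log2 scale and the one with the largest deficit by -1.25.

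**Figure D5:**
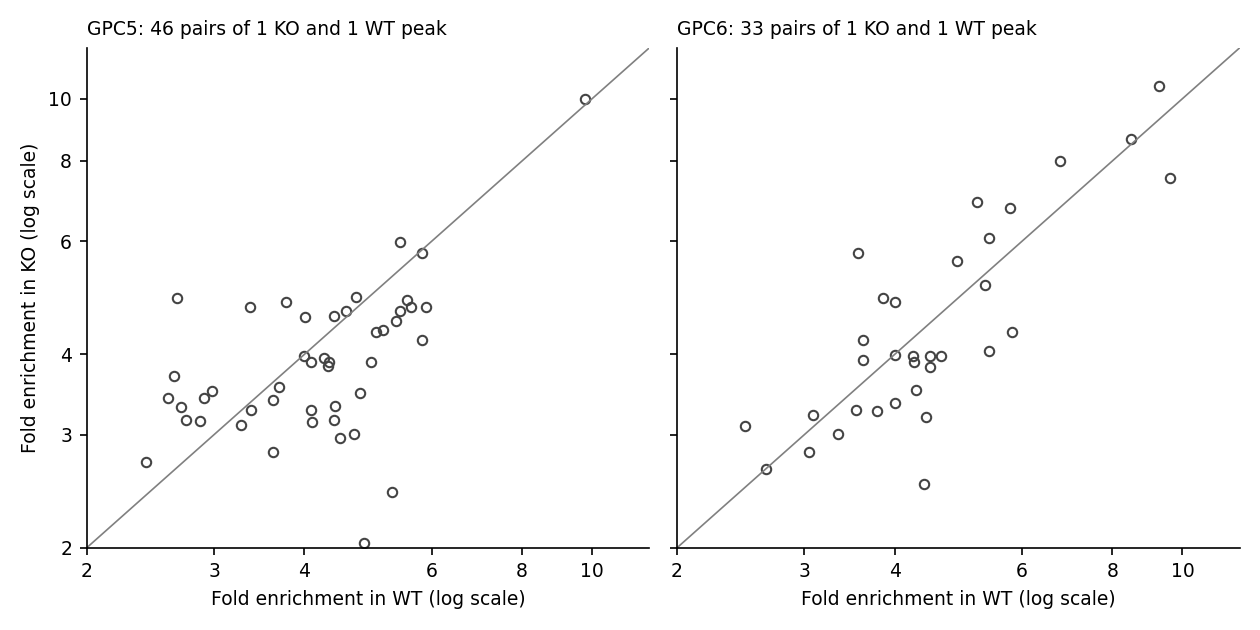
Fold enrichment in KO against WT (both log scales) for each place where exactly 1 KO and 1 WT peak of the gene overlap, 46 at GPC5 and 33 at GPC6, with the line of equal fold. At GPC5 29 points and at GPC6 19 points lie below the line.

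All but 1 of the 326 peaks were classed by the authors as gene body. The exception was a KO peak of 432 bp and fold 3.90 in the proximal promoter of a short GPC5 transcript (ENST00000618283), 708 bp before the end of the main transcript, and no WT peak lay within 3 kb of that end. Peaks over noncoding genes inside the glypican genes were assigned to those genes instead. GPC5-AS1 had 4 peaks in each genotype, GPC5-IT1 had 2 in each and GPC5-AS2 had 1 in each. GPC6-AS1 had 4 peaks in KO and 3 in WT. Counted by overlap with the gene body, GPC5 had 98 peaks in KO and 112 in WT and GPC6 had 80 and 60.

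The stretches around the genes did not share the deficit of GPC5 in peak number. The 349 kb between the genes held 52 peaks in KO and 50 in WT, or 149 and 143 per Mb, more than the density of either gene, and 45475 bases in KO and 49232 in WT. From 91 Mb to the start of GPC5 there were 31 peaks in KO and 21 in WT, and from the end of GPC6 to 95 Mb there were 19 and 13. The ratios were 1.04 (0.707 to 1.53), 1.48 (0.854 to 2.55) and 1.46 (0.732 to 2.92), each with an interval that includes the 0.875 of all peaks over the GPC5 body. MIR17HG, the host gene of a microRNA cluster just upstream of GPC5, had no peak over its body in either list. Of the 6 protein-coding RefSeq genes between 91 and 95 Mb, GPC5, GPC6 and DCT, which encodes a melanin synthesis enzyme, had peaks over their bodies. DCT had 6 in KO and 4 in WT.

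Among the other glypicans, GPC3, a gene of chromosome X known to restrain growth, was the only one with peaks. It had 7 in KO and 12 in WT, with 3032 and 10077 bases, whereas GPC1, GPC2 and GPC4 had none. With GPC5 and GPC6 included, 3 of the 6 family genes had a peak in each genotype. GPC5 and GPC6 were chosen for their many peaks, so this count cannot be set against a share over all genes. The share of all protein-coding RefSeq genes with a peak was 22.8% in KO and 20.0% in WT. Of 10 other heparan sulfate core proteins, COL18A1 and TGFBR3 had 1 peak in each genotype and the syndecans had none. Of 32 genes that build or edit heparan sulfate chains, 15 had a peak in KO (46.9%, 30.9 to 63.6) and 16 in WT (50.0%, 33.6 to 66.4). Of the 16 with a peak, 7 had more KO than WT peaks and 7 had fewer, where 54.7% and 20.2% of all names did, and 10 had more KO bases and 6 had fewer. Gene length was not taken into account in these shares. HPSE2, a relative of heparanase, had 26 peaks in KO and 20 in WT. GLCE, the epimerase of the chain, had 7 and 8, EXT2, a subunit of the chain polymerase, 7 and 6, and HS6ST3, a sulfotransferase gene also on chromosome 13, 7 and 6.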

How the data were processed

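H3K9me3 ChIP-seq was made from 293T cells in 2 genotypes. Reads were aligned with HISAT2 to hg38, per the submitters' processing notes. Which program called the peaks, with which settings and inputs, and how replicates were joined is not given in the sources used here. For each genotype the authors deposited 1 peak list with a fold enrichment (a ratio, per the file headers) and a q-value per peak, neither defined further. Depth per library is unknown here.

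Positions were read as counted from 1. Peaks were taken by the authors' gene column, and gene bodies and promoters from RefSeq (GRCh38.p14). Peak counts, bases, overlaps, windows of 100 kb and Wilson 95% intervals were computed with Python 3.11.15, pandas 2.3.3 and SciPy 1.17.1, and the overlap code was tested on simulated data. No p-value was computed, since each genotype had 1 list. The genes, lists and windows were chosen with earlier results of these data known. Named were the members, their widest and highest peaks, the 3 windows of largest gain and loss, the neighbours from 91 to 95 Mb, up to 4 genes per list and the 5 nearest genes by density, of which 1 is not reported here. Counts per intron were not made, as no exon annotation was used here. Alternatives changed the peak threshold, list length, overlap, gene assignment, joining of peaks and window width.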

Additional observations from a re-analysis of the deposited data

How the results depend on the processing

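Of 62 alternative values, 44 stayed within the counting interval of the value reported, 13 moved beyond it and 5 changed direction. Among peaks at or below the median q-value of both lists, a looser limit for KO, the GPC5 ratio of KO to WT was 1.11 for peaks and 1.06 for bases, the density of GPC5 over GPC6 in KO was 1.02, and 59.3% of KO and 67.9% of WT peaks of GPC5 met the other list, which turns the order of these shares. In lists of equal length the GPC6 ratio of peaks was 0.877, the density of GPC5 over GPC6 in KO was 1.17, and 76.0% of KO and 75.4% of WT peaks of GPC6 met the other list, which turns their order. From the median fold of both lists, 71.1% of KO and 73.0% of WT peaks met the other list at GPC6, as did 56.7% of WT peaks at GPC5, and 60.0% of GPC6 windows had fewer KO bases. The cause of these shifts was not tested. With 50% of both peaks required to overlap, a stricter rule by construction, the shares were 43.3% of KO and 37.9% of WT peaks at GPC5 and 42.1% of KO and 56.1% of WT peaks at GPC6. Within 1 kb, a looser one, they were 72.4% of KO and 94.7% of WT peaks at GPC6. In windows of 200 kb, 0 of 6 windows of GPC6, or 0%, had fewer KO bases. The density of GPC5 over GPC6 in WT kept its direction under the 4 alternatives that could change it; lists of equal length leave the WT list whole.

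No paired analysis was possible because the lists carry no column for a replicate, and for the same reason no library was left out. Depth and replicate spread are unknown, so a peak absent from 1 list need not be an unmarked place, and differences of these sizes have no replicate check.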
